A study of Mus musculus with 12 samples.

Results

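The genes described here encode the nuclear subunits of the 5 complexes of mitochondrial oxidative phosphorylation. They were taken by symbol: a probe set counted when the array annotation gave it a single gene symbol that starts with Nduf followed by a, b, c, s or v, with Uqcr, with Cox followed by a digit of the structural subunits, or with Atp5, or that is Sdha, Sdhb, Sdhc, Sdhd or Cyc1. This rule found 180 probe sets of 91 genes among the 18194 genes with a single symbol: 34 genes of complex I, 4 of complex II, 9 of complex III, 19 of complex IV, 17 of complex V and 8 assembly factors of complex I whose symbols begin with Ndufaf. Where a gene had several probe sets, the one of highest mean log2 intensity stood for it, and 85 of the 91 lay above log2 4 on at least 3 of the 12 arrays and were tested. Beyond that floor and that mean the rule used no values of the arrays. The members were chosen, however, with earlier results of these data known.

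The RNA came from bone marrow cells that had been bound to magnetic beads against B220, the CD45R antigen of B-lineage cells, and was measured on Affymetrix MOE430 2.0 arrays, 1 a sample. The 12 mice were littermates aged 4 to 6 weeks, 94% C57BL/6 by background, in 4 groups of 3. Mice with both Eµ-Myc and Eµ-TTP-1 are called Myc TTP, mice with Eµ-Myc alone Myc, mice with Eµ-TTP-1 alone TTP, and the remaining mice were wild type. The labels call both groups with Eµ-Myc precancerous. Eµ, the enhancer of the immunoglobulin heavy chain locus, drives both transgenes in B-lineage cells. TTP, tristetraprolin, is the product of Zfp36 and promotes the decay of mRNAs with AU-rich elements. The design asks how Myc alters the B-cell transcriptome and how TTP alters it with and without Myc. In bulk RNA of this kind, fewer cells of a type and less RNA per cell cannot be told apart.

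Complex I (NADH dehydrogenase) and complex II (succinate dehydrogenase) pass electrons to ubiquinone, complex III hands them to cytochrome c, complex IV (cytochrome c oxidase) reduces oxygen, and complex V (ATP synthase) uses the proton gradient that complexes I, III and IV build. Most subunits are encoded in the nucleus, a few core ones of complexes I, III, IV and V in mitochondrial DNA, and complex II has nuclear subunits only. Myc is known as a regulator of mitochondrial genes and of cell growth, and B cells raise their mitochondrial content when they are activated.

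Several arrays stood apart from their labels, which touches every result below. The Myc probe set had an intensity of 3617, 6801 and 10551 in Myc TTP, 13361, 15451 and 8163 in Myc, 1060, 1343 and 11360 in TTP, and 805, 819 and 6411 in wild type. The arrays labelled TTP 3 and wild type 3 were thus at the level of the arrays with the Myc transgene. Xist and a Y-linked gene were both above log2 4 on 4 arrays, the one numbered 3 in each group, although the first is normally expressed in females and the second in males. On Myc 3 this rested on the Y-linked Eif2s3y alone, at 5.05, with Kdm5d at 2.69 and Uty at 2.59. On Myc TTP 3, TTP 3 and wild type 3 Eif2s3y was at 10.70, 10.41 and 11.29, so the signal on Myc 3 was much weaker. The Zfp36 probe set was not higher in either group with the TTP label, so it does not check those labels. Results are given with all 12 arrays, and also without the arrays labelled TTP 3 and wild type 3 and without all 4 arrays numbered 3. Marker genes of other lineages differed as well. When both groups with Myc were set against both without, 12 of 13 granulocyte markers, 6 of 7 erythroid markers, 6 of 6 monocyte markers, 5 of 5 plasmacytoid dendritic cell markers and also 7 of 7 pan-B markers were lower at a limma adjusted p under 0.05. In the same comparison 24.6% of all genes were lower. The mean log2 intensity over the granulocyte markers ranged from 10.22 to 11.22 on the Myc TTP arrays, 6.61 to 11.51 on the Myc arrays, 11.21 to 13.03 on the TTP arrays and 11.81 to 12.68 on the wild-type arrays. Of 7 T-cell and NK-cell markers 5 were lower and 1, Cd8a, was higher, and the defining T-cell genes Cd3e and Cd3g lay below log2 4 on all arrays. Whether these marker differences reflect cell makeup, and their part in the results on oxidative phosphorylation, was not tested.

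With the Myc transgene, averaged over both TTP backgrounds, the subunits of complex III and the assembly factors of complex I were mostly higher, a smaller share of complexes I, II and V was, and complex IV had the fewest for its size. Of the 85 members 37 were higher and 3 lower at an adjusted p under 0.05 (limma, Benjamini-Hochberg over 10287 genes), and 45 were not called. Among all genes tested 18.7% were called higher and 24.6% lower. The median log2 difference of the members was 0.24, beside -0.06 over all genes. At an unadjusted p under 0.05 there were 53 of the 85 members, beside 53.9% of all genes. A positive difference was found for 71 members and a negative one for 14. Among the called members the differences ran from -1.23 for Cox6a2 to 1.54 for Ndufaf6.

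Counted by complex, 7 of 9 subunits of complex III, 13 of 33 of complex I, 6 of 17 of complex V, 2 of 4 of complex II and 2 of 14 of complex IV were called higher with Myc. The median difference was 0.30 for complex III, 0.20 for complex I, 0.22 for complex V, 0.25 for complex II and 0.11 for complex IV. Complex IV also held 2 members that fell, Cox6a2 and Cox6b2. Of the 8 assembly factors 7 rose and 1 fell, with a median of 0.64. No test of the differences between complexes was run. The 29 members with a mean log2 intensity above 13, a split chosen after the values were seen, had a median difference of 0.14 with 8 called higher, and the 56 dimmer ones 0.33 with 29 called higher and 3 lower.

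**Figure D1:**
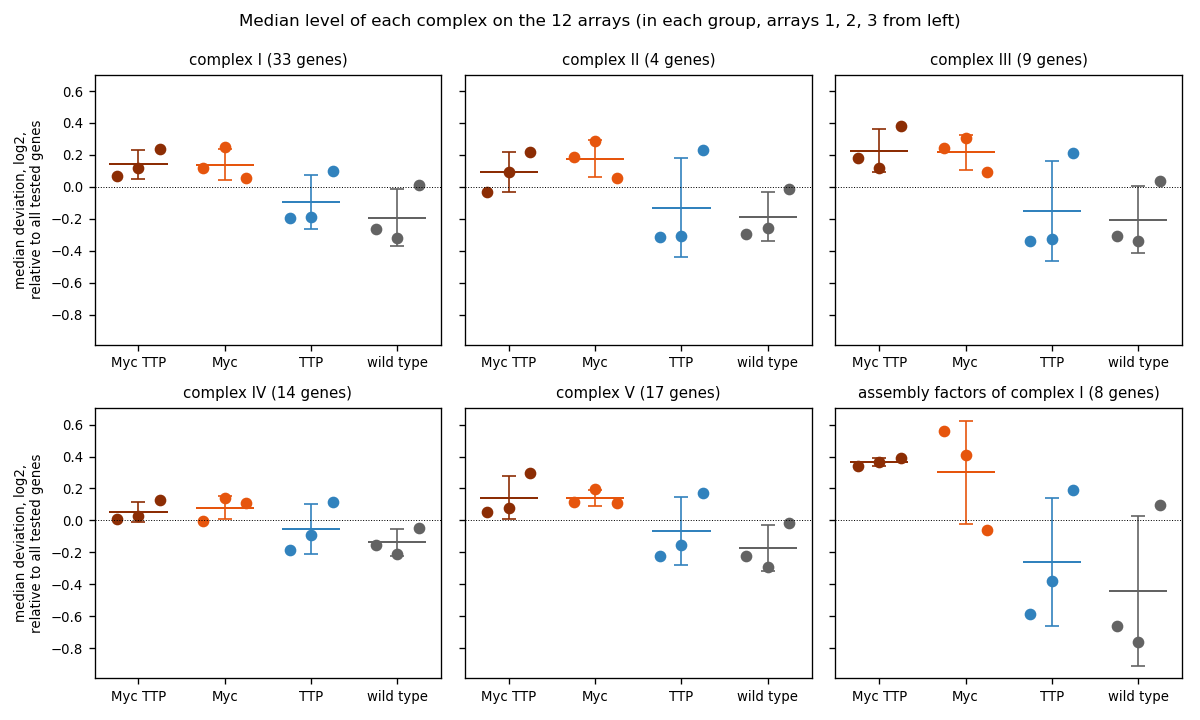
Median deviation of the tested members of each complex from their mean over all arrays, in log2 and relative to the median of all tested genes on the same array, for 12 arrays in 4 groups. Points are arrays 1, 2 and 3 from left to right, horizontal lines and bars are group means and SD (n = 3). In complex III, Myc TTP sits at 0.18, 0.12 and 0.38 and Myc at 0.25, 0.31 and 0.10, while the TTP arrays sit at -0.34, -0.33 and 0.21 and the wild-type arrays at -0.31, -0.34 and 0.04.

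The array medians show where the difference lay and which arrays ran against it. Relative to all tested genes, the median deviation of the 85 members was 0.07, 0.09 and 0.29 in Myc TTP, 0.12, 0.22 and 0.08 in Myc, -0.26, -0.20 and 0.13 in TTP, and -0.26, -0.30 and -0.00 in wild type. Arrays 1 and 2 of each group without Myc were low, and the arrays labelled TTP 3 and wild type 3 lay above the other arrays of their groups. The 6 arrays with Myc and the 6 without overlapped for all 85 members, where 0.758% of all genes had their 6 arrays with Myc all higher and 0.865% all lower. Set against the 4 arrays TTP 1, TTP 2, wild type 1 and wild type 2 alone, a choice made after seeing the data, the 6 arrays with Myc were all higher for 36 members and all lower for Cox6b2, and over all genes for 15.1% and 25.6%.

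The call count of the averaged comparison depended on single arrays. Without the array labelled wild type 3 it was 57 (22.9% of all genes higher and 27.3% lower). It was 21 without Myc 1 (9.72% and 12.6% of all genes), 18 without Myc 2 (10.3% and 13.4%) and 17 without TTP 1 (10.3% and 12.1%). It was 24 without TTP 2 (11.5% and 13.9%), 17 without wild type 1 (9.94% and 13.7%) and 16 without wild type 2 (9.41% and 11.6%). The shares of all genes, 18.7% and 24.6% with all arrays, moved in the same direction as the member count in each of these fits. Without both the arrays labelled TTP 3 and wild type 3, 57 members were higher and 3 lower (24.1% and 37.1% of all genes), and without the 4 arrays numbered 3 the counts were 55 and 3 (27.0% and 36.4%). All 40 called members were also called in both of those fits. With every array left out in turn, 15 of the 40 kept an adjusted p under 0.05: Ndufv1, Ndufa9, Ndufa10, Ndufb5, Ndufc1, Sdhd, Uqcr10, Uqcr11, Atp5g1, Atp5mpl, Cox6a2, Ndufaf2, Ndufaf4, Ndufaf5 and Ndufaf6. The other 25 lost the call in at least 1 of these 12 fits.

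**Figure D2:**
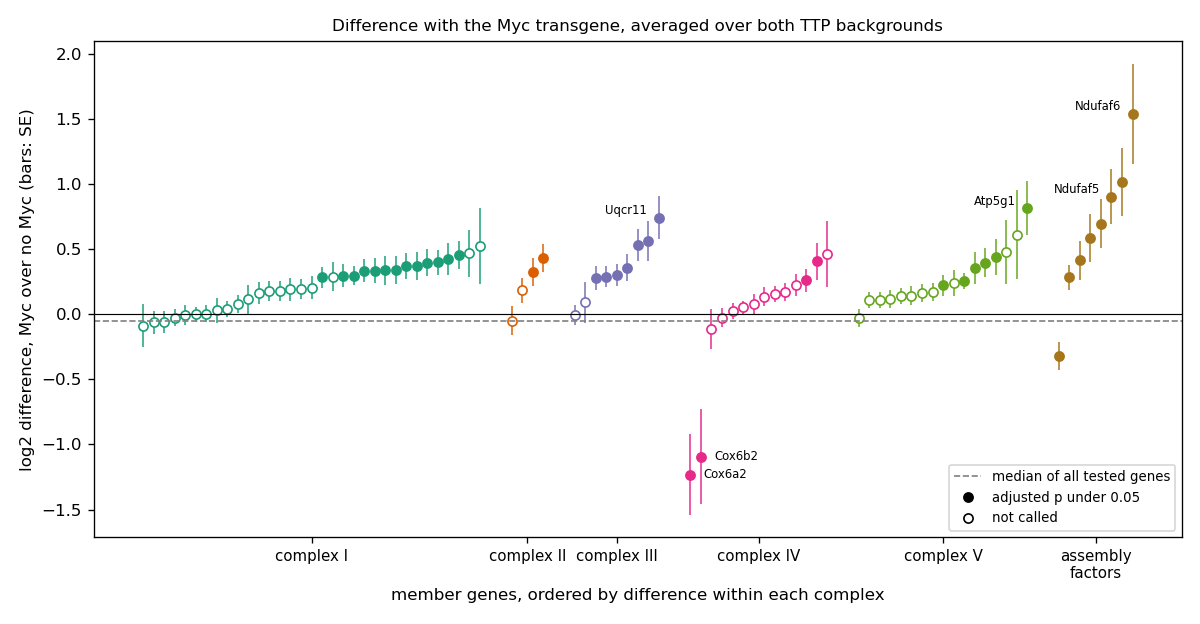
Log2 difference of each tested member with the Myc transgene over without it, averaged over both TTP backgrounds, with SE as bars, ordered within each complex. Filled points passed an adjusted p under 0.05 and the dashed line is the median of all tested genes at -0.06; 7 of 9 members of complex III and 7 of 8 assembly factors are filled above 0, and Cox6a2, Cox6b2 and Ndufaf3 are filled below it.

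Promoters of members were examined because many members moved together, and those of 7 members described below are shown with the motifs found in them. RefSeq promoter windows on GRCm38.p6, 250 bases before to 50 after the annotated start, were at hand for 74 of the 91 members. Both strands were searched for the Myc E-box CACGTG, for GCGCA, any base and GCGC as bound by NRF1 (nuclear respiratory factor 1), for CCGGAAG as bound by ETS factors such as GABP, and for AAGATGGC as bound by YY1. None of the 4 motifs contains another, and a match describes letters only. The E-box stood in 8.11% of the member promoters, beside 8.09% of all 27025 promoters. The NRF1 motif stood in 23.0% beside 5.19%, the ETS motif in 25.7% beside 9.93%, and the YY1 motif in 13.5% beside 3.19%. Members called higher with Myc and tested members not called had similar shares: of 29 called higher, 6.90% held the E-box, 20.7% the NRF1 motif, 31.0% the ETS motif and 13.8% the YY1 motif, and of the 40 not called 4 held the E-box, 25.0% the NRF1 motif, 25.0% the ETS motif and 15.0% the YY1 motif.

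Of members that rose, Ndufv1 (minus strand of chr19:4012706-4013005) has an E-box starting 169 bases before the start and Atp5g1 (minus strand of chr11:96075582-96075881) one starting 44 bases before it. Sdhd (minus strand of chr9:50603800-50604099) has an NRF1 and an ETS motif, starting 79 and 46 bases before the start. Ndufaf5 (plus strand of chr2:140170396-140170695) has an NRF1 motif from base 17 after the start. Uqcr11 (minus strand of chr10:80406772-80407071) has an ETS motif starting 66 bases before it, and Cox8a (minus strand of chr19:7217567-7217866) has ETS motifs starting 5 bases before and at base 33 after it. Cox6b2 (minus strand of chr7:4753045-4753344), which fell, is also shown and holds none of the 4 motifs in this window. It makes no contrast with the rises, because the rising members shown all hold a motif while others do not. Ndufa10, Ndufb5, Uqcr10 and Uqcrfs1 also rose and hold none of the 4. Each window is printed 5′ to 3′ on the gene's strand with the motif matches in capitals.
Ndufv1: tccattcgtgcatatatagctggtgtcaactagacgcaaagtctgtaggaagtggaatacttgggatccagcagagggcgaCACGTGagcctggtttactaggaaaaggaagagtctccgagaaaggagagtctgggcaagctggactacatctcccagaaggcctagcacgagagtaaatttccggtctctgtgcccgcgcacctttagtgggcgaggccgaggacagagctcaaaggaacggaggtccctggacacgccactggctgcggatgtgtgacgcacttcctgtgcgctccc
Sdhd: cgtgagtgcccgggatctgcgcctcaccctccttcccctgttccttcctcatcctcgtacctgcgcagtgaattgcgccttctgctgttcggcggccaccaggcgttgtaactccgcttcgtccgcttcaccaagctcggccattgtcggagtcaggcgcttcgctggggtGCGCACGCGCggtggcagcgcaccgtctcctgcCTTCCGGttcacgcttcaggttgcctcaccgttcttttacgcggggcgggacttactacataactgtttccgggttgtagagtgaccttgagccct
Uqcr11: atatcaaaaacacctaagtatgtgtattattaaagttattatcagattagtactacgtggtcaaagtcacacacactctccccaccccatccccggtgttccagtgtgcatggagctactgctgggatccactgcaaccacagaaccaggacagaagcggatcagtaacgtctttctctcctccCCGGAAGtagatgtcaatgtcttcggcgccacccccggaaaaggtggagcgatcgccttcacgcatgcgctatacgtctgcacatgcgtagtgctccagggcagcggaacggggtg
Cox8a: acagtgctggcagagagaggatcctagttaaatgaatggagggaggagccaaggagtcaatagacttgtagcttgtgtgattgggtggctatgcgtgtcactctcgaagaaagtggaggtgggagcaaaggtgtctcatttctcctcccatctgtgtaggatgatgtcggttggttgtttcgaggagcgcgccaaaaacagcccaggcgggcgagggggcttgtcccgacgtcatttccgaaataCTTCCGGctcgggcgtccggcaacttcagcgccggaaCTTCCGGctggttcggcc
Atp5g1: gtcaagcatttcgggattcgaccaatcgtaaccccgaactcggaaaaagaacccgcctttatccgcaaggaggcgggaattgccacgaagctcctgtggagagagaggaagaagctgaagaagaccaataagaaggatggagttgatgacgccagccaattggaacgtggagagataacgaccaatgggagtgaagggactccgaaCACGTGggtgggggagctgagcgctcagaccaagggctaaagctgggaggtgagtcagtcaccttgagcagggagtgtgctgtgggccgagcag
Ndufaf5: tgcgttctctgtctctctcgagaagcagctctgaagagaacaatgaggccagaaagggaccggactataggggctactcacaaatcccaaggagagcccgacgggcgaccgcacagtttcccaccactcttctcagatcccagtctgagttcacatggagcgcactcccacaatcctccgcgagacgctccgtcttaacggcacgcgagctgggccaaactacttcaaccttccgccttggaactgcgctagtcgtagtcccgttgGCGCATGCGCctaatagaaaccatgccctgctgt
Cox6b2: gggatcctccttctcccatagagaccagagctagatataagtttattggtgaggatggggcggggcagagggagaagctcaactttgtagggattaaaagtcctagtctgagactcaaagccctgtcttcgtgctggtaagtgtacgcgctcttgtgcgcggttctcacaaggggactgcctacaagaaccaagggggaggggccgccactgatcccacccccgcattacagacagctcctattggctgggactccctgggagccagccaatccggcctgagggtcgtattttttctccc

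**Figure D3:**
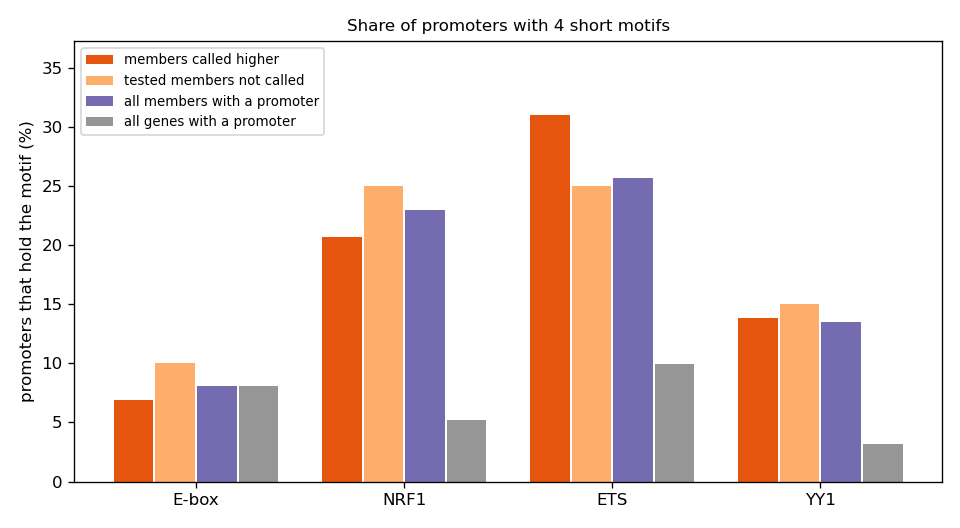
Percent of promoter windows that hold each of 4 motifs on either strand, among 29 members called higher with Myc, 40 tested members not called, all 74 members with a window and all 27025 genes with one. The NRF1, ETS and YY1 bars of the members stand above those of all genes, and the E-box bars do not: 8.11% of members against 8.09% of all genes.

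In complex I, 13 of 33 tested subunits rose and none fell at the threshold. Ndufv1, which binds FMN and takes the electrons from NADH, had log2 intensities of 12.57, 12.46 and 12.43 in Myc TTP, 11.97, 12.15 and 11.82 in Myc, 11.75, 11.83 and 11.97 in TTP and 11.57, 11.81 and 12.07 in wild type. All 3 Myc TTP arrays were above every other array, while the Myc arrays overlapped both groups without Myc. Its averaged difference was 0.40 ± 0.10 (SE, limma adjusted p = 0.0169), a 1.32-fold rise. Its partner in the NADH-binding arm, Ndufv2, differed by 0.19 ± 0.09 (adjusted p = 0.101) and was not called. Ndufs1, the largest iron-sulfur subunit, had a lowest, median and highest value of 11.87, 12.19 and 12.27 on the 6 arrays with Myc, against 11.64, 11.78 and 12.08 on the 6 without. These ranges overlapped, with a difference of 0.33 ± 0.10 (adjusted p = 0.0208). Ndufs3, a core subunit of the arm that reaches ubiquinone, rose by 0.29 ± 0.09 (adjusted p = 0.0246). Its neighbours in that arm, Ndufs7 and Ndufs8, each carrying iron-sulfur clusters, were not called, at 0.29 ± 0.11 (adjusted p = 0.0596) and 0.19 ± 0.08 (adjusted p = 0.0685).

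Accessory subunits of complex I gave its largest called rise and also negative differences. Ndufa10, an accessory subunit of the membrane arm, had log2 intensities of 13.36, 13.15 and 13.19 in Myc TTP, 12.91, 13.12 and 12.85 in Myc, 12.54, 12.66 and 12.74 in TTP and 12.44, 12.44 and 13.01 in wild type. The Myc TTP arrays again lay above all others, and the averaged difference was 0.46 ± 0.11 (limma adjusted p = 0.0169). Ndufb5, another membrane-arm subunit, rose by 0.30 ± 0.07 (adjusted p = 0.0169). Ndufa2 and Ndufb10 lay at -0.06 ± 0.08 (adjusted p = 0.580) and -0.06 ± 0.09 (adjusted p = 0.585). A small positive difference was common: the highest in the complex, 0.52 for the acyl carrier protein Ndufab1, was not called (adjusted p = 0.163), and its array Myc TTP 1 was at 11.26, below the 2 other Myc TTP arrays at 12.51 and 12.79. Ndufb4 had no single-symbol probe set above log2 4.

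In complex II, 1 membrane anchor and the iron-sulfur subunit rose. The membrane anchor Sdhd had a lowest, median and highest value of 11.29, 11.59 and 11.89 on the 6 arrays with Myc, against 10.90, 11.12 and 11.45 on the 6 without, and it rose by 0.43 ± 0.11 (limma adjusted p = 0.0169). The iron-sulfur subunit Sdhb had a lowest, median and highest value of 12.91, 13.08 and 13.42 on the 6 arrays with Myc, against 12.49, 12.73 and 13.05 on the 6 without, and it rose by 0.33 ± 0.11 (adjusted p = 0.0318). The flavoprotein Sdha, which holds the succinate site, differed by 0.18 ± 0.10 (adjusted p = 0.134), and the other anchor Sdhc by -0.05 ± 0.11 (adjusted p = 0.733), neither past the threshold. A dimmer probe set of Sdha gave -0.26, and one of Sdhc 0.18, so the sign of neither was shared by its probe sets. For Sdhd the arrays with and without Myc overlapped only through arrays numbered 3. Myc 3 was the lowest array with Myc, at 11.29. The TTP arrays were at 11.02, 11.14 and 11.38 and the wild-type arrays at 10.90, 11.11 and 11.45, with array 3 the highest in both.

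Complex III had the largest share of called subunits. Cyc1 is cytochrome c1, which passes electrons to cytochrome c. It had log2 intensities of 12.59, 12.52 and 12.59 in Myc TTP, 12.24, 12.25 and 11.96 in Myc, 11.56, 11.67 and 12.17 in TTP and 11.50, 11.54 and 12.31 in wild type. Array 3 was the highest of the TTP and of the wild-type arrays and the lowest of the Myc arrays, and the averaged difference was 0.56 ± 0.15 (limma adjusted p = 0.0185). Uqcr11, a small accessory subunit whose promoter is given above, had 12.98, 12.69 and 12.79 in Myc TTP, 12.56, 12.65 and 12.28 in Myc, 11.74, 11.80 and 12.31 in TTP and 11.56, 11.63 and 12.47 in wild type. Again array 3 was the highest without Myc in both groups, and the difference of 0.74 ± 0.17 (adjusted p = 0.0169), a 1.67-fold rise, was the largest of the complex. Uqcr10, a further small subunit, rose by 0.53 ± 0.12 (adjusted p = 0.0169), and Uqcrfs1, the Rieske iron-sulfur protein, by 0.36 ± 0.10 (adjusted p = 0.0225). Uqcrh, the acidic hinge protein next to cytochrome c1, and Uqcrb, an accessory subunit near the ubiquinone site, were the members not called, at 0.09 ± 0.16 (adjusted p = 0.651) and -0.01 ± 0.08 (adjusted p = 0.938).

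Complex IV had the smallest median difference of the complexes, and 2 of its tissue isoforms fell. Cox8a and Cox6c, small subunits of the common form, were the members that rose, by 0.41 ± 0.14 (limma adjusted p = 0.0423) and 0.26 ± 0.09 (adjusted p = 0.0336). Single arrays decided both calls: Cox8a was no longer called in 9 of the 12 fits that left out 1 array and Cox6c in 8. A dimmer probe set of Cox8a, at a mean of 11.54 with Myc and 11.15 without, gave 0.39. Another near the floor, at 4.73 and 4.69, gave 0.04. Cox4i1, the common form of a regulatory subunit, differed by 0.02 ± 0.06 (adjusted p = 0.755) and Cox7a2l, known for its part in joining complexes III and IV, by -0.03 ± 0.07 (adjusted p = 0.759). Ndufa4, counted here with complex IV because it is now known as one of its subunits, differed by 0.23 ± 0.09 (adjusted p = 0.0527).

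Cox6a2, the isoform of subunit VIa best known from heart and skeletal muscle, had log2 intensities of 9.05, 8.14 and 8.54 in Myc TTP, 6.47, 6.94 and 8.10 in Myc, 9.05, 9.32 and 8.41 in TTP and 9.03, 9.92 and 8.90 in wild type. The Myc arrays lay below all wild-type arrays, and the Myc TTP arrays overlapped both groups without Myc. The averaged difference was -1.23 ± 0.31 (limma adjusted p = 0.0169), a 2.35-fold fall, and Myc over wild type gave -2.11 ± 0.44 (adjusted p = 0.0479). The averaged call held under all 23 alternatives, and the call for Myc over wild type under 8 of them, with an adjusted p of up to 0.193. Its common counterpart Cox6a1 differed by 0.05 ± 0.05 (adjusted p = 0.398). Cox6b2, the isoform of subunit VIb best known from testis, had 8.45, 7.90 and 7.70 in Myc TTP, 6.75, 6.84 and 8.06 in Myc, 9.17, 9.60 and 7.56 in TTP and 8.96, 8.83 and 8.14 in wild type. Its lowest values were on Myc 1 and Myc 2, while Myc 3 and TTP 3 stood apart from their groups. The difference was -1.09 ± 0.36 (adjusted p = 0.0338), and the call held in 4 of the 12 fits that left out 1 array, those without Myc TTP 1, Myc 3, TTP 3 or wild type 3. Its common counterpart Cox6b1 differed by 0.15 ± 0.06 (adjusted p = 0.0719).

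Markers of other cells moved with these isoforms. The mean log2 intensity over the 5 plasmacytoid dendritic cell markers was 9.57, 8.72 and 8.54 in Myc TTP, 7.85, 7.97 and 9.49 in Myc, and 10.46, 10.95 and 9.32 in TTP. All 3 wild-type arrays lay above every Myc array, with a highest value of 11.21. Like Cox6a2 and Cox6b2, the mean of these markers was lowest on Myc 1 and Myc 2 and higher on Myc 3. The means of all other marker lists had the same order, so the pattern was not particular to this cell type. On Myc 1, 2 and 3 the granulocyte mean was 6.61, 7.86 and 11.51 and the pan-B mean 12.42, 12.60 and 13.02. The erythroid mean was 7.76, 7.73 and 5.73 in Myc TTP, 5.01, 4.99 and 7.78 in Myc, 9.31, 9.70 and 7.49 in TTP, and 8.81, 8.77 and 7.83 in wild type. The part of any of these cell types in the fall of the isoforms was not tested. Of the remaining tissue isoforms, Cox7a1, best known from muscle, was above log2 4 on 5 arrays only and differed by 0.46 ± 0.25 (adjusted p = 0.153), beside 0.13 ± 0.07 (adjusted p = 0.141) for the common form Cox7a2. Cox4i2, Cox7b2, Cox8b, Cox8c and Ndufa4l2 were above the floor on 0 arrays and were not tested.

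**Figure D4:**
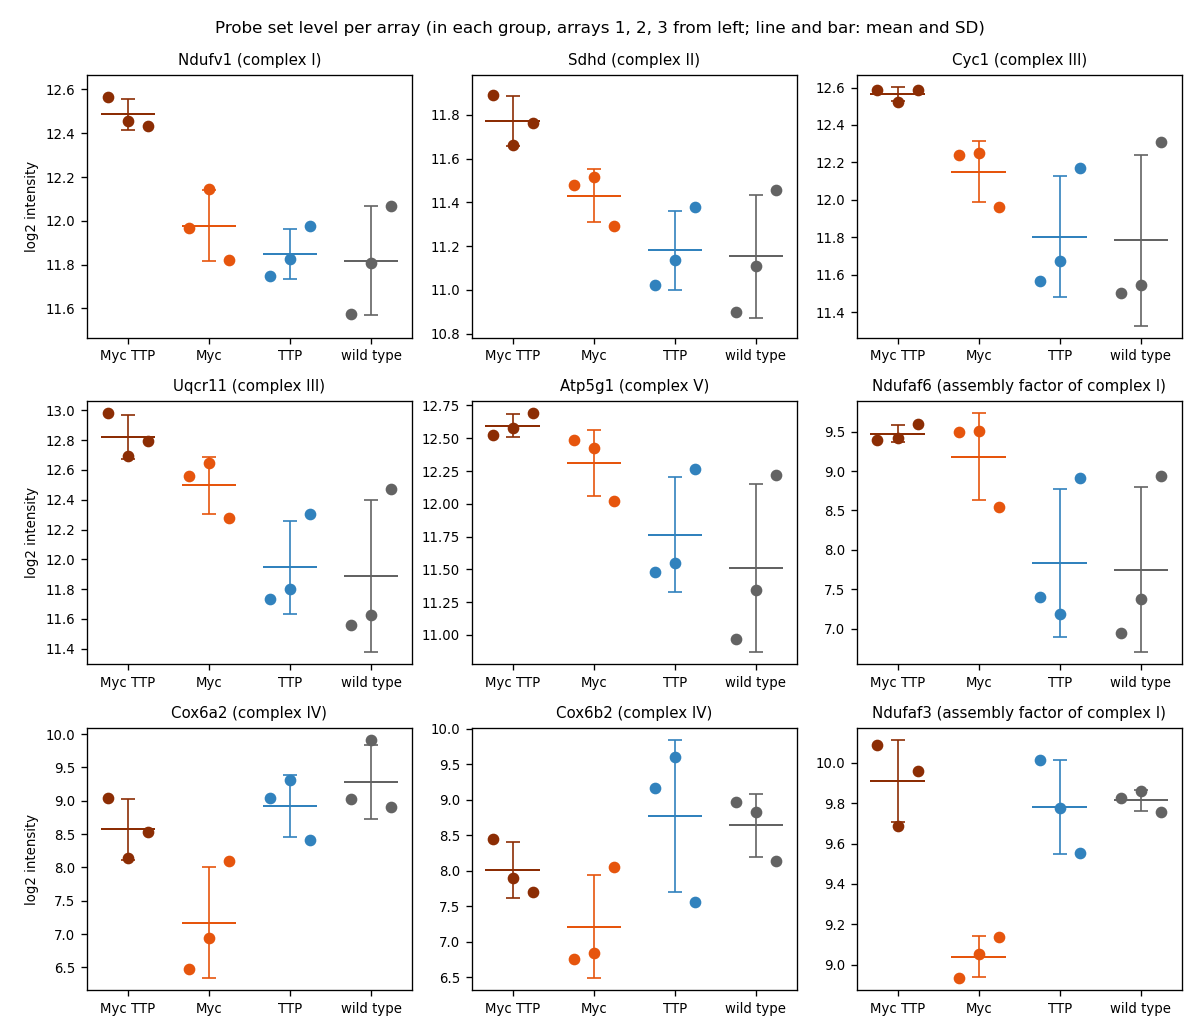
Log2 intensity of the probe sets of 9 members on the 12 arrays, with arrays 1, 2 and 3 of each group from left to right and the group mean and SD (n = 3) as lines and bars; the scales differ between panels. In the upper 6 panels the Myc TTP arrays are high and arrays 1 and 2 of the groups without Myc are low, and in the lower 3 the Myc arrays are the lowest group: Ndufaf3 sits at 8.93, 9.05 and 9.14 on the Myc arrays.

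In complex V, 6 of 17 tested subunits rose. Atp5b, the catalytic beta subunit, had a lowest, median and highest value of 13.94, 14.23 and 14.39 on the 6 arrays with Myc, against 13.52, 13.75 and 14.23 on the 6 without, and it rose by 0.36 ± 0.12 (limma adjusted p = 0.0389). Atp5a1, the alpha subunit that alternates with it in the ring, had a lowest, median and highest value of 13.70, 14.03 and 14.33 on the 6 arrays with Myc, against 13.41, 13.52 and 13.98 on the 6 without, and it rose by 0.40 ± 0.11 (adjusted p = 0.0199). Both ranges overlapped. Atp5mpl, a small proteolipid bound to the membrane part, rose by 0.25 ± 0.06 (adjusted p = 0.0169).

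The membrane rotor of ATP synthase is a ring of c subunits, and 3 genes, Atp5g1, Atp5g2 and Atp5g3, encode the same mature protein behind different import sequences. Atp5g1 had log2 intensities of 12.52, 12.58 and 12.69 in Myc TTP, 12.48, 12.43 and 12.02 in Myc, 11.48, 11.55 and 12.27 in TTP and 10.97, 11.35 and 12.22 in wild type. The arrays with Myc were all above TTP 1, TTP 2, wild type 1 and wild type 2, and the averaged difference was 0.82 ± 0.21 (limma adjusted p = 0.0171), a 1.76-fold rise. Atp5g2 rose by 0.44 ± 0.14 (adjusted p = 0.0300). Atp5g3 had 12.78, 13.59 and 13.97 in Myc TTP, 14.62, 14.53 and 14.49 in Myc, 13.44, 12.97 and 14.72 in TTP and 13.48, 12.14 and 13.59 in wild type. The Myc arrays were high and close together and the other groups spread widely, and the averaged difference of 0.61 ± 0.34 was not called (adjusted p = 0.161). Atp5pb, the peripheral stalk subunit b, differed by -0.03 ± 0.07 (adjusted p = 0.734).

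The assembly factors of complex I, which build the enzyme without staying in it, held the largest rises. Ndufaf6, a factor for the early membrane assembly, had log2 intensities of 9.40, 9.43 and 9.60 in Myc TTP, 9.50, 9.51 and 8.55 in Myc, 7.40, 7.19 and 8.91 in TTP and 6.94, 7.38 and 8.93 in wild type. All arrays with Myc except Myc 3 were above all arrays without it, and the averaged difference was 1.54 ± 0.38 (limma adjusted p = 0.0169), a 2.90-fold rise. Ndufaf5, which hydroxylates an arginine of Ndufs7, had 8.85, 8.35 and 8.45 in Myc TTP, 8.51, 8.39 and 7.92 in Myc, 7.25, 7.34 and 7.95 in TTP and 7.28, 7.14 and 8.09 in wild type, with a difference of 0.90 ± 0.21 (adjusted p = 0.0169). The remaining rises, named after their values were seen, were 1.01 for Ndufaf4, 0.69 for Ndufaf2, 0.59 for Ndufaf7, 0.41 for Ndufaf1 and 0.28 for Ndufaf8, with adjusted p-values from 0.0171 to 0.0471. Of these, Ndufaf1, Ndufaf7 and Ndufaf8 lost the call in 8 or 9 of the 12 fits that left out 1 array.

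Ndufaf3 was the exception. Together with Ndufaf4 it is known to act on the arm of complex I that reaches ubiquinone. Its log2 intensities were 10.09, 9.69 and 9.96 in Myc TTP, 8.93, 9.05 and 9.14 in Myc, 10.02, 9.78 and 9.55 in TTP and 9.82, 9.86 and 9.76 in wild type. All 3 Myc arrays lay below the 9 others, whose values overlapped between the groups. Myc over wild type gave -0.77 ± 0.15 (limma adjusted p = 0.0479), a call that held under 8 of the 23 alternatives, and Myc TTP over TTP 0.13 ± 0.15 (adjusted p = 0.549). The averaged difference, -0.32 ± 0.11 (adjusted p = 0.0342), lost the call in 8 of the 12 fits that left out 1 array and when the arrays were set to a common median (-0.22). The interaction, which asks whether the difference with Myc depends on TTP, was 0.90 ± 0.22 and not called (adjusted p = 0.358).

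Taken alone, Myc over wild type called few members. With all arrays 0 members rose and 2 fell, Cox6a2 and Ndufaf3, beside 0.467% of all genes higher and 10.6% lower. The median of the members was 0.13 and that of all genes -0.21. Setting the arrays to a common median or quantile normalization moved the median of all genes to 0.05 and 0.04, and the members to 0.39 and 0.23, above all genes in each case. Both settings ended the 2 calls, and neither called any gene of all in this comparison. The calls were also lost in 8 of the 12 fits that left out 1 array, those without Myc TTP 1, Myc TTP 2, Myc TTP 3, Myc 1, Myc 2, TTP 1, wild type 1 or wild type 2. Of the 85 members, the 3 Myc arrays lay above the 3 wild-type arrays for 4 and below for 7, with 3.49% and 41.3% over all genes. At an unadjusted p under 0.05 there were 18 of the 85, beside 41.0% of all genes. Among the 4, Atp5g3 differed by 1.48 ± 0.48 (limma adjusted p = 0.0592) and Ndufc2, a membrane-arm subunit of complex I, by 0.39 ± 0.11 (adjusted p = 0.0508). Without the array labelled wild type 3, 27 members were higher and 3 lower (11.5% and 23.2% of all genes), without TTP 3 the counts were 7 and 3 (4.48% and 30.7%), and without Myc 3 they were 2 and 3 (3.13% and 17.8%). Without both arrays labelled TTP 3 and wild type 3, 36 were higher and 3 lower (14.0% and 34.3%), and without the 4 arrays numbered 3 the counts were 38 and 4 (18.5% and 36.6%). Leaving out TTP 3 changes this comparison only through the shared estimate of the spread and the filter on low values.

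With TTP present, more members had groups that did not overlap. Myc TTP over TTP had a median of 0.32, beside 0.09 over all genes. Of the 85 members 55 had all Myc TTP arrays above all TTP arrays and 0 below, beside 30.6% and 5.36% of all genes. None was called by limma with all arrays, and 52 members had an unadjusted p under 0.05, beside 36.0% of all genes. Ndufv1 was highest by its test statistic at 0.64 ± 0.14 (adjusted p = 0.0607), and the lowest was Cox6b2 at -0.76 ± 0.51 (adjusted p = 0.296). Without TTP 3, 38 members were higher and 1 lower (18.5% and 19.9% of all genes), without wild type 3 the counts were 37 and 0 (16.7% and 1.86%), and without both they were 46 and 1 (21.0% and 22.0%). Without the 4 arrays numbered 3 they were also 46 and 1 (23.9% and 22.0%). Myc TTP over wild type called 0 members and 1 gene of all, lower (0.00972%), with a median of 0.35 beside 0.03 and 52 members at an unadjusted p under 0.05 (38.0% of all genes). The Myc TTP arrays were all above the wild-type arrays for 44 of the 85 members and below for 0, beside 25.0% and 20.6% of all genes. Ndufv1 differed there by 0.67 ± 0.14 (adjusted p = 0.0520) and Ndufb5 by 0.48 ± 0.10 (adjusted p = 0.0520). Without Myc 3, 23 members were higher (10.6% of all genes), without TTP 3, 39 (15.8%), without wild type 3, 54 (20.7%), without both of the last, 55 (23.3%), and without the 4 arrays numbered 3, 53 higher and 1 lower (25.9% and 21.5%).

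The estimates of the Myc difference without and with TTP share no array, so their signs can be set side by side. Both were positive for 58 of 85 members (68.2%), both negative for 4 and opposite for 23, and the shares of the members were 4.71% for both negative and 27.1% for opposite. Over all 10287 genes both were positive for 31.9%, both negative for 40.4% and opposite for 27.7%. Among the members of opposite sign Atp5g3 had the widest gap, at 1.48 ± 0.48 for Myc over wild type and -0.26 ± 0.48 for Myc TTP over TTP (adjusted p = 0.709), with an interaction of -1.74 ± 0.68 (adjusted p = 0.359). Cox6a2, negative in both, had the largest interaction of the members, 1.76, which was not called. It gave -2.11 for Myc over wild type, and -0.61 to -0.13 over the alternatives for Myc TTP over TTP.

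**Figure D5:**
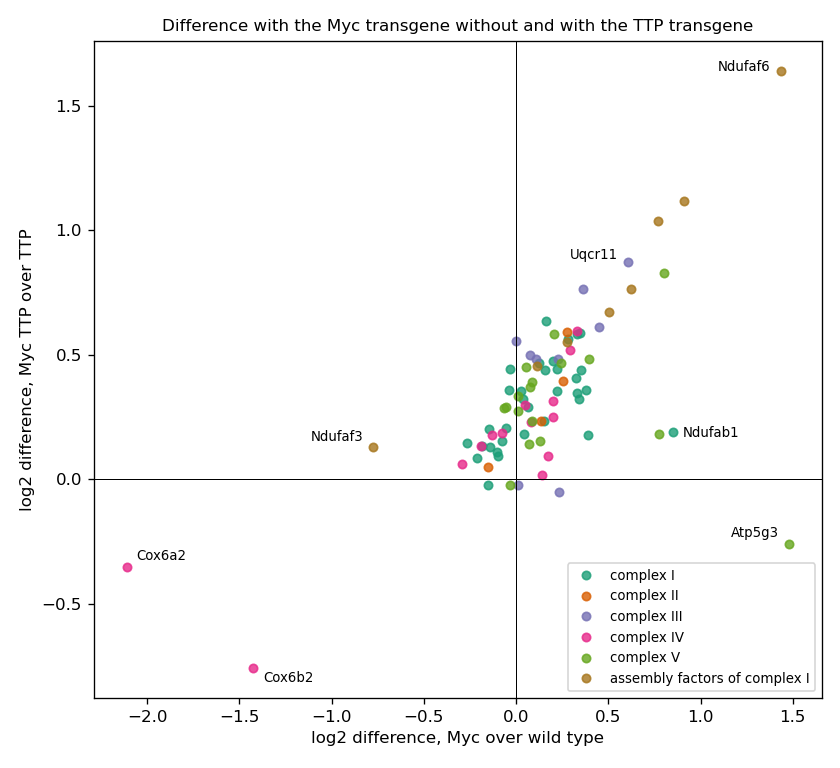
Log2 difference of the 85 tested members for Myc over wild type (horizontal) and Myc TTP over TTP (vertical), 1 point a gene, coloured by complex. Of the points 58 lie where both are above 0; Cox6a2 and Cox6b2 lie where both are below it, and Atp5g3 lies to the right at 1.48 and -0.26.

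With all 12 arrays TTP left no called difference in these genes. TTP over wild type called 0 members and 0 of all genes with limma, 0 members had an unadjusted p under 0.05 beside 1.45% of all genes, and the median was 0.01 beside -0.06. No member had its TTP arrays all above or all below the wild-type arrays, which 0.603% and 3.65% of all genes had. The highest member difference was 0.64 ± 0.48 for Atp5g3 (adjusted p = 1.00). Myc TTP over Myc also called 0 members and 0 genes. At an unadjusted p under 0.05 there were 31 of the 85 members, beside 19.1% of all genes. Of the 85, 43 had all Myc TTP arrays above all Myc arrays, beside 32.3%, and 1, Atp5g3, had them all below, beside 1.41%. The median of 0.23 lay beside 0.27 over all genes. With quantile normalization both medians shrank to 0.07 and 0.05, and with a common median the members lay at -0.03 beside 0.01, so no direction can be given. Ndufaf3 was higher in Myc TTP by 0.87 ± 0.15 (adjusted p = 0.145) and Atp5g3 lower by 1.10 ± 0.48 (adjusted p = 0.250), neither called. Without the 4 arrays numbered 3, 8 members were called higher and 1 lower, beside 14.3% and 0.568% of all genes. With all arrays the interaction of Myc and TTP called 0 members and 0 genes, with 18 of the 85 members at an unadjusted p under 0.05 beside 13.1% of all genes. Its median of 0.25 beside 0.34 became -0.07 beside 0.01 with a common median. Without the 4 arrays numbered 3 the interaction called 0 members, beside 2.54% of all genes higher and 0.117% lower.

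Other mitochondrial gene lists moved beside these subunits in the averaged comparison, in which 18.7% of all genes were called higher and 24.6% lower, with a median of -0.06. Of 75 mitochondrial ribosomal proteins, which translate the mitochondrially encoded subunits, 63 rose and 0 fell, with a median difference of 0.52, and Mrpl12 rose by 0.99 ± 0.23 (limma adjusted p = 0.0169). Of 18 enzymes of the tricarboxylic acid cycle and pyruvate entry 9 rose and 0 fell, with a median of 0.28, and Dlat, the acetyltransferase of the pyruvate dehydrogenase complex, rose by 0.72 ± 0.14 (adjusted p = 0.0169). A list of 43 assembly factors of the respiratory chain, 8 of them members here, had 23 higher and 2 lower with a median of 0.41. Electron carriers, nucleotide exchange proteins and the ATP synthase inhibitor had 11 of 22 higher and 1 lower, with a median of 0.29, and the outer membrane channel Vdac1 rose by 0.38 ± 0.11 (adjusted p = 0.0202). Regulators of mitochondrial biogenesis and mitochondrial DNA upkeep had 8 of 20 higher and 2 lower, with a median of 0.27. In that list Ppargc1a, a coactivator of mitochondrial genes, lay below log2 4 on all Myc arrays and was at least 2.22-fold lower in Myc than in wild type by a fold computed against the floor. Its fitted difference there was -2.03 ± 0.51 (limma adjusted p = 0.0479). Tfb1m, a mitochondrial rRNA methyltransferase, was higher in Myc than in wild type by 0.88 ± 0.26 (adjusted p = 0.04998, just under the threshold). These were the only genes of that list called in Myc over wild type. There the other 4 lists had 0 genes called higher and 1 lower, Ndufaf3, and no gene of all was called with quantile normalization, a common median, no intensity trend or the replicate block.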

How the data were processed

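Total RNA of B220-selected bone marrow cells was hybridised to 12 arrays, 3 in each of 4 groups, which were assigned from the labels. The authors deposited GCRMA summaries per probe set (per the submitters' processing notes; no version is stated there). The deposited values are intensity on a linear scale, from 1.73 to 120125, with array medians of 10.9 to 13.9, and no arrays were identical. GCRMA normalizes between arrays, so a change in total RNA per cell cannot be seen. From 46.0% to 48.7% of an array's probe sets were above log2 4. Precision is limited by the number of arrays. The samples are called biological replicates in the labels.

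The log2 of the deposited intensity was taken without a pseudocount. The array holds 45101 probe sets, of which its annotation named 34958 with 1 symbol, 932 with several and 9211 with none; 34754 of the first were found in the RefSeq table of GRCm38.p6, and all member symbols matched it. The 10 probe sets that carry a member symbol beside another symbol were not used. The probe set of highest mean stood for a gene, which was tested when above log2 4 on at least 3 arrays, which left 10287 genes. limma 3.58.1 in R 4.3.3 (lmFit, eBayes with an intensity trend) fitted 4 group means to 12 arrays with 8 residual degrees of freedom and no covariates. Tests were two-sided, p-values were adjusted by Benjamini-Hochberg over all 10287 genes, and a gene was called under 0.05. Errors beside differences are SE, and errors beside group means SD. The script was tested on simulated data.

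Contrasts set Myc, TTP and Myc TTP each against wild type, and Myc TTP against TTP and against Myc; to these came the interaction and the Myc difference averaged over both TTP backgrounds. Named members were, per complex, the 3 highest and 3 lowest moderated t in Myc over wild type, all of complex II, members called (at most 10 per contrast), the 2 highest and 2 lowest t elsewhere, isoform families and catalytic subunits, of which the text gives a part. Ndufa9, Ndufa12, Ndufab1, Ndufb4, the 5 untested isoforms of complex IV and the assembly factors 1, 2, 4, 7 and 8 stand outside this rule and were named after their values were seen. The members and lists were chosen with earlier results of these data known. Alternatives covered scaling, floor, probe set choice, the intensity trend, the replicate number as a block and each array left out; the settings without the arrays labelled TTP 3 and wild type 3 and without the 4 arrays numbered 3 were chosen after seeing the data.

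The replicate numbers of TTP and wild type might pair the mice. Residuals of same-numbered arrays of these groups correlated at 0.498, 0.664 and 0.821, while those of Myc and wild type correlated at -0.434, -0.281 and -0.630. Arrays of different number also correlated, TTP 1 with wild type 2 at 0.512 and TTP 2 with wild type 1 at 0.433. Pairs of TTP and wild type in which 1 array was numbered 3 lay from -0.726 to -0.556. Both arrays numbered 3 stand apart in the same direction, and the labels state no pairing. With the replicate number as a block, TTP over wild type again called 0 members.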

Additional observations from a re-analysis of the deposited data

How the results depend on the processing

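Of the comparisons, those of single groups rested on few arrays. Myc over wild type, with 2 members called, gave 0 under quantile normalization, a common median, no filter on low values, the mean of all probe sets, the most variable probe set, no trend and the replicate block, and 0 to 30 when each array was left out in turn. No gene of all was called in this comparison under any setting that gave 0. The comparison gave 39 without the arrays labelled TTP 3 and wild type 3 and 42 without the 4 arrays numbered 3, both chosen after seeing the data. Under those settings Myc TTP over TTP, with 0 called, gave 47 and 47 (0 to 39 with each array left out). Myc TTP over wild type, with 0 called, gave 55 and 54 (0 to 54 with each array left out). With a floor of log2 6 it gave 27, beside 11.5% of all genes higher and 4.30% lower. Myc TTP over Myc gave 9 without the 4 arrays numbered 3. For the settings that leave out arrays numbered 3, shares of all genes stand beside these counts in the Results. The averaged comparison, with 40 called, ranged from 16 to 57 with each array left out. All genes gave 9.41% higher and 11.6% lower at 16, and 22.9% and 27.3% at 57. With the replicate block, a pairing the labels do not state, the averaged comparison gave 38, beside 16.2% and 24.4% of all genes. TTP over wild type and the interaction stayed at 0 called members under all 23 alternatives. Without the 4 arrays numbered 3, all genes gave 2.54% higher and 0.117% lower for the interaction, and 0.00979% higher for TTP over wild type. Among called members Ndufa12, at 0.37 in the averaged comparison, turned to -0.38 with the probe set of largest SD and without _x_at and _s_at probe sets, where a probe set near the floor stood for it. Directions also turned for named members that were not called: Uqcrh in Myc TTP over Myc gave 0.27 without _x_at and _s_at probe sets, Sdha in the averaged comparison gave -0.26 with the probe set of largest SD, and Sdhc gave 0.048 with a common median, 0.0633 with the mean of its probe sets, 0.18 with the probe set of largest SD, 0.0243 without the 4 arrays numbered 3, and -0.11 to 0.017 with each array left out. The causes of these changes were not tested. Fewer genes were tested under the stricter floor, and fewer arrays entered the settings that leave some out.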

Other observations

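A single probe set of a mitochondrially encoded subunit, ND5 of complex I, was tested on these arrays. Its log2 intensity averaged 11.22 ± 0.08 in Myc TTP, 11.49 ± 0.04 in Myc, 11.54 ± 0.20 in TTP and 11.21 ± 0.14 in wild type (SD, n = 3 each). The difference with Myc averaged over both TTP backgrounds was -0.02 ± 0.08 (SE, limma adjusted p = 0.849), beside a median of 0.20 for the nuclear subunits of complex I. That average joined opposite signs: Myc over wild type gave 0.28 ± 0.12 (limma adjusted p = 0.108), while the Myc TTP mean lay below the TTP mean. Cycs, the somatic cytochrome c that carries electrons between complexes III and IV, rose by 0.55 ± 0.15 (limma adjusted p = 0.0180). Both were named after their values were seen.

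Of the 49 tested members with at least 2 probe sets above the floor, 39 had all of them on the same side of 0 in the averaged comparison. Among the 40 called members 20 had several such probe sets, and in 18 of them all had the same sign.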
